A study of Homo sapiens with 4 samples.

Results

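The genes described here were the 4 TSC22 domain genes (*TSC22D1*, *TSC22D2*, *TSC22D3* and *TSC22D4*), the 3 serum- and glucocorticoid-regulated kinases (*SGK1*, *SGK2* and *SGK3*), *ZBTB16*, *DDIT4* and the *DDIT4* paralogue *DDIT4L*. They were picked by gene symbol, as families with members known from glucocorticoid biology, and make up 10 of the 23287 genes listed in the RNA tables. The RNA response of these genes in the same libraries was in view when they were picked, so that their changes are given as a description with no test. T47D is an established human breast cancer cell line that carries the progesterone receptor (PR). Cells in charcoal-stripped serum, which is depleted of steroids, received 10 nM R5020, a synthetic progestin, or the vehicle ethanol (EtOH) for 3 h before poly(A)+ RNA was sequenced. In a separate experiment, cells kept longer in stripped serum than those used for RNA were given 10 nM R5020 for 1 h. Their chromatin was precipitated with an antibody against PR and sequenced (ChIP-seq). There was 1 library per condition, and therefore no measure of variation between cultures.

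The progesterone, glucocorticoid and mineralocorticoid receptors bind closely related DNA elements, made of a pair of inverted half-sites around a short spacer, so that many genes respond to more than one of these hormones. *TSC22D3*, also called GILZ, and *SGK1* are classic glucocorticoid-induced genes: GILZ is a leucine zipper protein that restrains NF-kB and AP-1, and SGK1 is a kinase that keeps the epithelial sodium channel at the membrane by inhibiting the ubiquitin ligase NEDD4L. *ZBTB16* encodes the zinc finger repressor PLZF, and *DDIT4* encodes REDD1, an inhibitor of the growth-promoting kinase complex mTORC1.

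Expression was measured as FPKM, a count of sequenced fragments scaled by transcript length and by library size, summed over the RefSeq transcripts of a gene. The coverage columns correspond to about 35151493 reads on transcripts in the EtOH library and 36203604 in the R5020 library. Genes that reached 1 FPKM in either library were retained, 11018 in all, and a gene is called higher or lower in R5020 when it differed by at least 1.5-fold after 1 was added to both FPKM values. All log2 ratios below are on this scale, on which genes with low FPKM appear to change less than they do. The median log2 ratio of the genes at or above 1 FPKM in both libraries was 0.0099 on this scale, and 0.012 without the added 1. The luminal and epithelial markers *KRT19* (608 FPKM in EtOH and 477 in R5020), *GATA3* (253 and 126), *EPCAM* (62.2 and 55.6) and *ESR1* (17.2 and 10.9) were expressed. *PTPRC*, *PECAM1*, *KRT5*, *KRT14* and *VIM*, which mark other cell types, were below 1 FPKM in both libraries, whereas the stromal gene *COL1A1* had 5.12 FPKM in EtOH and 3.31 in R5020. *KRT8* and *KRT18* had 285 and 174 FPKM in R5020 but were listed at 0 in EtOH, where the deposited table marks their estimates as failed.

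Of the 10 genes, 8 were retained, 5 of these were higher in R5020 (*TSC22D1*, *TSC22D2*, *TSC22D3*, *SGK1* and *ZBTB16*) and 0 were lower, with 3 retained genes within 1.5-fold (*TSC22D4*, *SGK3* and *DDIT4*). Over all retained genes, 7.67% were higher and 4.14% lower. Nothing is read from this contrast, because the members were chosen with it in view. In bulk RNA, a change in the number of expressing cells and a change in RNA per cell cannot be told apart. *SGK2* and *DDIT4L* stayed below 1 FPKM in both libraries. With a 2-fold in place of a 1.5-fold threshold, 4 members were higher and *TSC22D1* was not, beside 3.43% of the retained genes.

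**Figure D1:**
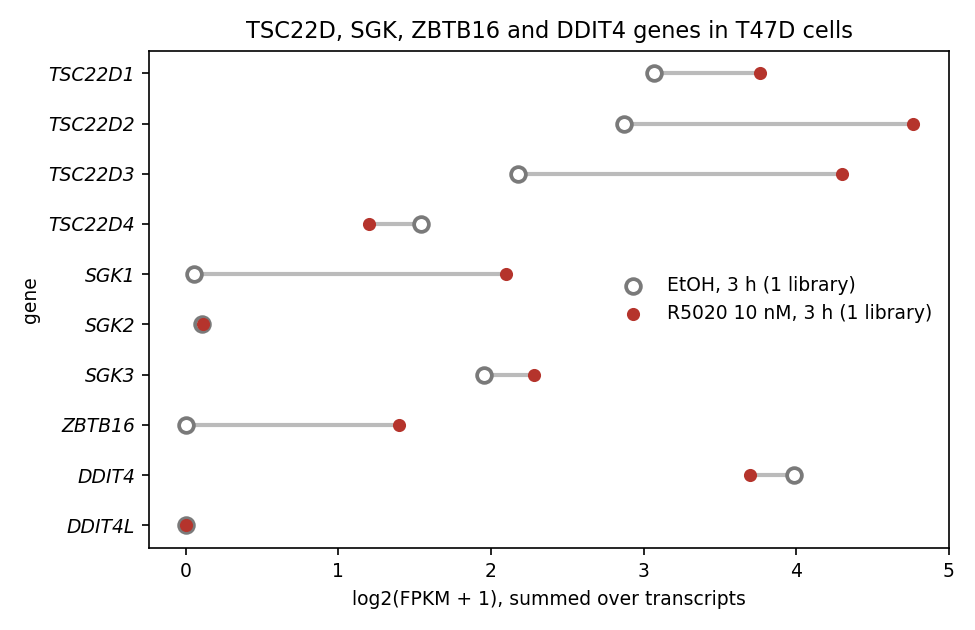
FPKM of the 10 genes in the EtOH and R5020 libraries (x axis, log2(FPKM + 1), summed over transcripts; open circles EtOH, filled circles R5020, 1 point per library, joined by a line for each gene). *TSC22D2* and *TSC22D3* lie furthest apart among the genes above 1 FPKM in EtOH, *SGK1* and *ZBTB16* start at or near 0, and *DDIT4L* is listed at 0 in both libraries.

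Among the TSC22 domain genes, *TSC22D3* had the largest ratio. It had 3.52 FPKM in EtOH and 18.7 in R5020, a log2 ratio of 2.12 that ranked 74 among the 11018 retained genes. *TSC22D2* had 6.30 FPKM in EtOH and 26.2 in R5020 (log2 ratio 1.90, rank 101). *TSC22D1*, the founding member, first described as a gene stimulated by TGF-beta, had 7.39 FPKM in EtOH and 12.6 in R5020 (log2 ratio 0.69, rank 666). These 3 genes were therefore not at one common ratio: the FPKM ratio without an added 1 was 5.30 for *TSC22D3*, 4.15 for *TSC22D2* and 1.70 for *TSC22D1*. The call of *TSC22D1* was lost when only the highest transcript of each library was used (log2 ratio 0.53). These were different transcripts, NM_183422 in EtOH and NM_006022 in R5020, and NM_006022 by itself kept the call (0.91). *TSC22D4* went the other way on a small scale, with 1.91 FPKM in EtOH and 1.30 in R5020 (log2 ratio -0.34), which did not pass 1.5-fold.

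The order of the TSC22 domain genes by FPKM differed between the libraries. In EtOH, *TSC22D1* was the highest, with 38.6% of the family's summed FPKM of 19.1, followed by *TSC22D2* (33.0%), *TSC22D3* (18.4%) and *TSC22D4* (9.99%). In R5020, the sum was 58.7 FPKM and *TSC22D2* held 44.6% of it, followed by *TSC22D3* (31.8%), *TSC22D1* (21.4%) and *TSC22D4* (2.21%). *TSC22D1* thus moved from the highest to the third place while its own FPKM was higher in R5020. The deposited FPKM of *TSC22D1*, *TSC22D2* and *TSC22D4* lay outside their own deposited intervals, whose midpoints gave 9.36 FPKM in EtOH and 16.2 in R5020 for *TSC22D1*, 4.02 and 16.2 for *TSC22D2*, and 0.786 and 0.558, under the filter, for *TSC22D4*. By these midpoints *TSC22D1* was again the highest in EtOH, but *TSC22D3* was the highest in R5020 and the other two were level, so the order in R5020 depends on which deposited value is read.

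Among the kinases, *SGK1* had 0.0388 FPKM in EtOH and 3.28 in R5020 (log2 ratio 2.04, rank 84). The EtOH value rests on about 9.37 reads and the R5020 value on about 726, so that the plain FPKM ratio of 84.5 is imprecise. The limits of the deposited 95% intervals, 0 to 0.0874 in EtOH and 2.89 to 3.67 in R5020, lay 33.0-fold apart at their nearest. These intervals cover the estimate within a library and not the variation between cultures. *SGK3*, the kinase with a lipid-binding PX domain that places it on endosomes, had 2.88 FPKM in EtOH and 3.87 in R5020 (log2 ratio 0.33) and did not pass 1.5-fold. *SGK2* had 0.0769 FPKM in EtOH and 0.0808 in R5020, which is about 15.4 and 16.6 reads. In EtOH, *SGK3* made up 96.1% of the summed SGK FPKM and *SGK1* 1.30%. In R5020, *SGK3* made up 53.5% and *SGK1* 45.4%, with *SGK3* still the higher of the pair.

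*ZBTB16* was listed at 0 FPKM in EtOH, with an estimate marked as successful, and had 1.63 FPKM in R5020 (deposited interval 1.35 to 1.91, about 325 reads). Its size of change is not given, because against a value listed at 0 it is set by the amount added to FPKM, and its call as higher rests on the added 1 and the R5020 level. *SGK1* and *ZBTB16* were among 23 genes with successful estimates, and transcripts of at least 200 nt, that were below 0.1 FPKM in EtOH and at or above 1 in R5020. *DDIT4* was expressed in both conditions, with 14.9 FPKM in EtOH and 12.0 in R5020 (log2 ratio -0.29), and did not pass 1.5-fold. By the midpoints of its intervals it had 10.0 and 8.02 FPKM, with the same log2 ratio. *DDIT4L*, the paralogue of *DDIT4* also called REDD2, was listed at 0 in both libraries. Neither gene of this pair was thus higher in R5020 at 3 h.

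The transcripts of a gene did not always move together, with the limit that they share exons, so that the split of reads between them is an estimate. Of the 24 RefSeq transcripts of the 10 genes, 12 had an FPKM above 0 in either library and 11 were retained. Of these, 6 were higher in R5020, 2 were lower and 3 were within 1.5-fold, beside 11.3% higher and 8.34% lower over all retained transcripts. For *TSC22D3*, NM_004089 had 2.44 FPKM in EtOH (interval 2.12 to 2.77) and 18.7 in R5020 (17.7 to 19.7), a log2 ratio of 2.52. NM_198057 of the same gene had 1.08 FPKM in EtOH (interval 0.864 to 1.30, about 225 reads), 30.7% of the gene's FPKM, and was listed at 0 in R5020. NM_001015881 was listed at 0 in both libraries, so that the whole *TSC22D3* level in R5020 was assigned to NM_004089.

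*TSC22D1* had 2 transcripts above 0, from different starts. The short NM_006022 had 3.08 FPKM in EtOH and 6.68 in R5020 (log2 ratio 0.91), and the long NM_183422 had 4.31 and 5.90 (log2 ratio 0.38). Only the short transcript passed 1.5-fold, and its share of the gene's FPKM was 41.6% in EtOH and 53.1% in R5020. The transcript that held the *SGK3* level differed between the libraries. NM_001033578 had 2.88 FPKM in EtOH and was listed at 0 in R5020, and NM_013257 was listed at 0 in EtOH and had 3.87 FPKM in R5020, which counts one as lower and the other as higher although the gene sum did not pass 1.5-fold. Among 4499 genes with several transcripts and at least 1 FPKM in both libraries, the leading transcript differed between the libraries in 534 (11.9%), and in 41 (0.911%), *SGK3* included, each library's leading transcript was listed at 0 in the other. *SGK1* and *ZBTB16* each had 1 transcript above 0, NM_005627 and NM_006006.

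**Figure D2:**
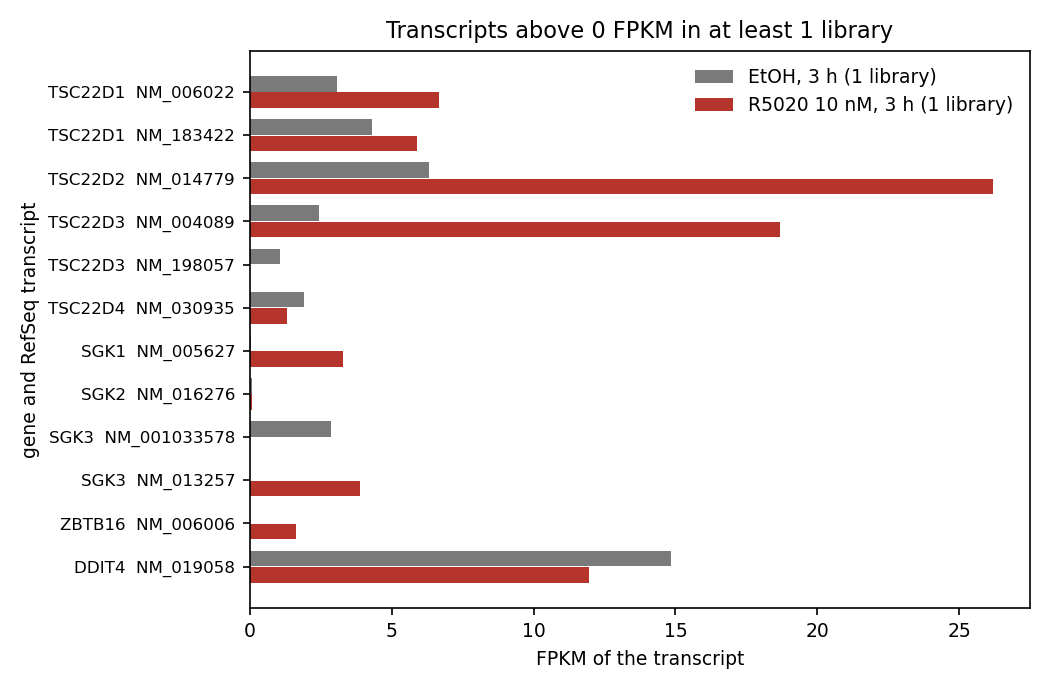
FPKM of the RefSeq transcripts of the 10 genes that were above 0 in either library (x axis, FPKM; 1 bar per library and transcript). NM_004089 holds the R5020 level of *TSC22D3*, and the bars of *SGK3* lie on one transcript in EtOH and on the other in R5020.

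The PR ChIP-seq list held 11181 sites, with a score (-10 times the log10 of the peak caller's p-value) from 50 upwards and a median of 74.5. Distances to a gene were taken from the edge of a site to the nearest end of the gene, and distances to a start from the middle of the site. A PR site lay within 50 kb of 6 of the 10 members, namely 3 of the 5 genes that were higher in R5020 (*TSC22D1*, *TSC22D2* and *ZBTB16*) and 3 of the other 5 (*TSC22D4*, *SGK2* and *DDIT4*). Over all genes 45.7% had such a site, and over retained genes 52.7%. The share was 61.4% over all genes higher in R5020, 61% over all lower genes and 51.5% over those within 1.5-fold, and the members' counts lie near these shares. Sites inside the gene were found in 3 members, with 6 in *ZBTB16* and 1 each in *TSC22D2* and *DDIT4*.

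*ZBTB16* lies on chr11:113930431-114121397 (hg19, plus strand). Its 6 sites fell 4.50, 103, 104, 120, 121 and 167 kb downstream of the start of NM_006006, with scores of 64.0, 102, 188, 399, 73.8 and 55.5 in that order. The site at 120 kb ranked 81st of all 11181, within the top 0.724%. The middle of the first site lay in a coding exon and those of the other five in introns. A gene with 6 or more sites inside was rare among retained genes: 60 of the 11018 (0.545%), and 35 of the 1648 of at least 100 kb (2.12%), had as many. *ZBTB16* itself was retained through its R5020 level only, and genes under the filter were not counted.

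**Figure D3:**
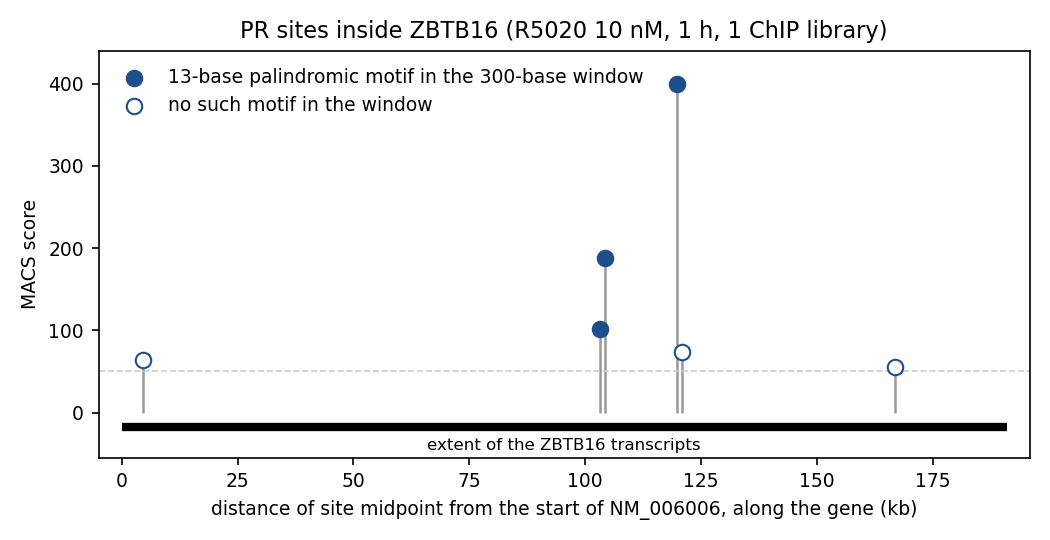
PR sites inside *ZBTB16* (x axis, distance of the middle of the site in kb from the start of NM_006006; y axis, site score; filled points hold the full motif described next, the dashed line marks a score of 50). The highest site stands at 120 kb with a score of 399, next to a weaker site at 121 kb, and a pair stands at 103 and 104 kb.

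The letters of the receptor element were then looked for in 300 bases centred on each site, on both strands. The core was ACANNNTGT, in which N is any base. The full motif holds this core with an N and then a G before it, and an N and then a C after it, and TGTTCT was taken as the half-site, which can overlap the other motifs. The core was in 8.2% of the windows at all sites and 7.68% of windows placed 5 kb away, and the half-site in 17.7% and 19.3%. Of all sites, 211 of 11178 windows (1.89%) held the full motif, against 55 of 11168 windows (0.492%) placed 5 kb away. It was found in 4.83% of windows with a score of at least 100 and 1.31% of those below. *ZBTB16* held it in 3 of its 6 sites, as GAACACACTGTAC at 103 kb, GTACACTGTGTGC at 104 kb and GTACACTCTGTAC at 120 kb. Of the retained genes, 80 (0.726%) had a site with the full motif inside, 2 had at least 2 and *ZBTB16* was the 1 gene with 3. *ZBTB16* is a long gene that was retained through its R5020 level only. The count was not made for genes of like length or for genes under the filter, so nothing is read from this rank. These 3 windows are shown because no other site within 50 kb of a member held the full motif and because the highest score near a member is among them. They are read from the plus strand of hg19, with the full motif in capitals.
ZBTB16 intronic site at 103 kb, chr11:114033564-114033863: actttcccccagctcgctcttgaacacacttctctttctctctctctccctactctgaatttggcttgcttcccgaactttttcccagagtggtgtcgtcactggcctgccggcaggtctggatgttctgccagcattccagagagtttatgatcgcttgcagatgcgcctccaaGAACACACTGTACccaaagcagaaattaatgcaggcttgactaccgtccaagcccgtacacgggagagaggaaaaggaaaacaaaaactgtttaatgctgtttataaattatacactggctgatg
ZBTB16 intronic site at 104 kb, chr11:114034631-114034930: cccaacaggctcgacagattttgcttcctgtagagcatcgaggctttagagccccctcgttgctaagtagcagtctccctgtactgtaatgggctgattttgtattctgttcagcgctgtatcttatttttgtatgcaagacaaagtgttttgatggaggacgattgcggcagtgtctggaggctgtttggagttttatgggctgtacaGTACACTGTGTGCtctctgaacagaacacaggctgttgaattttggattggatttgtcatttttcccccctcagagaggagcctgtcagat
ZBTB16 intronic site at 120 kb, chr11:114050153-114050452: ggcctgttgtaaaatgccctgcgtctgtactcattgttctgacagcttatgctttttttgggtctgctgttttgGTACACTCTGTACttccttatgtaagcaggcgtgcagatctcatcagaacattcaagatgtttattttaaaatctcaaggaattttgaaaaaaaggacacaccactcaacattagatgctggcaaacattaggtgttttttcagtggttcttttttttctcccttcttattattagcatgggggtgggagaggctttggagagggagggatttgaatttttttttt

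*TSC22D2* (chr3:150126788-150177615, plus strand) had 1 site inside, at chr3:150127859-150128520, 1.40 kb downstream of the start in the coding part of the first exon. Its score of 129 ranked 687th, within the top 6.14% of the sites. *DDIT4* (chr10:74033677-74035797, plus strand) had a site at chr10:74033976-74034484, 0.552 kb from the start, with a score of 78.9 and rank 4746. Both genes thus had a PR site just downstream of the start, while their log2 ratios were 1.90 and -0.29. Neither window held the full motif, the core or the half-site, and both were rich in G and C, at 73.3% and 64.7% against a median of 57.3% over all windows (quartiles 49.7% and 63.7%). Lacking these motifs was common, as 8.2% of all site windows held the core and 17.7% the half-site. The 3 *ZBTB16* windows with the full motif had 48.0%, 46.7% and 39.0% G and C. The *ZBTB16* windows without it, at 4.50, 121 and 167 kb, had 63.7%, 53.7% and 56.0%. The 2 start-proximal windows are shown for their composition, on the plus strand of hg19 and all in lower case as no motif was found.
TSC22D2 first-exon site, chr3:150128040-150128339: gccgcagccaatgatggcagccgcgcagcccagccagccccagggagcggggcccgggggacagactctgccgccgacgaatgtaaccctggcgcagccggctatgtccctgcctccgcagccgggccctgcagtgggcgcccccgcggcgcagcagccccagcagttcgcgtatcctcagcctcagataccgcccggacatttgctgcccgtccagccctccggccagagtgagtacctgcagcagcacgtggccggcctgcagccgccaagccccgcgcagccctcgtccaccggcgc
DDIT4 site, chr10:74034080-74034379: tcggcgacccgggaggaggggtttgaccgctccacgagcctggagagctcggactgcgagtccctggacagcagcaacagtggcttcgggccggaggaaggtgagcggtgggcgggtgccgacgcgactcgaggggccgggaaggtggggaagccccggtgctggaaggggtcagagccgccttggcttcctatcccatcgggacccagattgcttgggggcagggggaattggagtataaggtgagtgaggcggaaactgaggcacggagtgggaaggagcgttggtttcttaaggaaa

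*SGK1* and *TSC22D3*, the members best known as corticoid targets, had no PR site within 50 kb. The site nearest to *SGK1* (chr6:134490384-134639196, minus strand) was at chr6:134793758-134794240, 155 kb from the gene and 298 kb from the start of NM_005627, with a score of 80.5. Its window held 3 half-sites and 1 core, but not the full motif. Windows 5 kb away from all sites held the half-site and the core about as often as windows at sites. In 5 kb upstream of each annotated start, *SGK1* was the 1 member with the full motif, as GGACAAAATGTTC at chr6:134497163-134497175, written on the strand of the gene and starting 1141 bases upstream of the start of NM_005627. The match lies inside longer *SGK1* transcripts and 105 bases upstream of NM_001143678, which was listed at 0 in both libraries. Of 23580 starts, 1470 (6.23%) had the full motif in the same window, and no PR site was listed at this match. For *TSC22D3* (chrX:106956452-107019017, minus strand), the nearest site lay 3266 kb away. The X chromosome held 87 of the 11181 sites, 20.7% of its 343 retained genes had a site within 50 kb, and 16 of them were at least as far from a site as *TSC22D3*, against a median of 412 kb.

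The remaining members had sites only at a distance. *TSC22D1* (chr13:45006279-45150701, minus strand) had its nearest site 39.8 kb away, with a score of 57.7 near the minimum of the list. This distance is to the end where the long NM_183422 starts. From the start of the short NM_006022, the transcript that passed 1.5-fold, the site lay 180 kb away. *TSC22D4* (chr7:100064142-100076902, minus strand) had one 30.6 kb away in a coding exon of *PPP1R35*, with a score of 90.5, and *SGK2* (chr20:42187635-42214273, plus strand) one 34.8 kb away in an intron of *IFT52*, with a score of 74.6. *SGK3* and *DDIT4L* had none within 188 and 619 kb. Within 100 kb of the 11 sites near members lay 11 other retained genes, of which 0 were higher and 0 were lower in R5020. Over all retained genes, 7.67% were higher and 4.14% lower. The 11 genes all lay near the sites of *TSC22D4*, *SGK2* and *DDIT4*, which were not higher themselves. The sites of *TSC22D1*, *TSC22D2* and *ZBTB16* had no such gene, so nothing is read from this count.

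**Figure D4:**
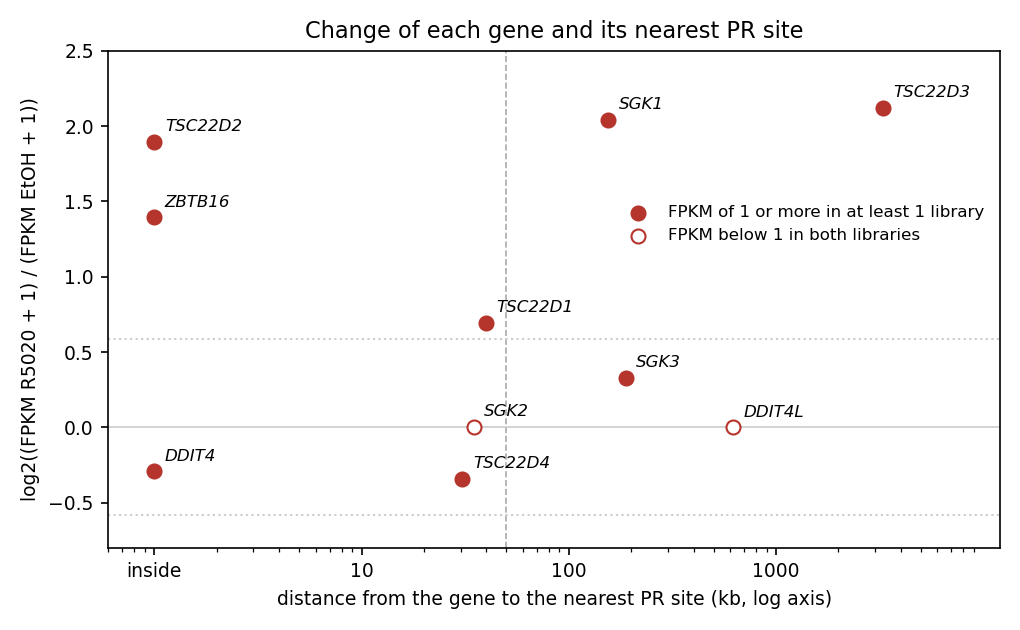
Log2 ratio of the 10 genes (y axis, log2 of R5020 over EtOH after adding 1 to FPKM; open points are below 1 FPKM in both libraries) against the distance to the nearest PR site (x axis, kb, log scale, with sites inside the gene drawn at the left). Dotted lines mark 1.5-fold and the dashed line 50 kb. *TSC22D3* and *SGK1* have the highest ratios and sites far away, and *DDIT4* has a site inside and a ratio below 0; the height of *ZBTB16*, listed at 0 in EtOH, is set by the added 1.

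Other genes of the same pathways were counted from lists that leave out the members. The lists were chosen with earlier results of these data known, so nothing is read from their contrast with all genes. Of 35 further corticoid targets, 25 were retained, 17 of them higher and 1 lower past 1.5-fold. Over all retained genes, 7.67% were higher and 4.14% lower. The median log2 ratio of the list was 1.29, against 0.0053 over all retained genes. A gene that is high in R5020 alone passes this filter and 10 listed genes were left out by it; without the filter the median of the list was 0.48. *CEBPD*, a bZIP transcription factor, had 10.2 FPKM in EtOH and 66.9 in R5020 (log2 ratio 2.60). *TIPARP*, an ADP-ribosyltransferase, had 4.37 and 29.9 (2.52), and *FKBP5*, a co-chaperone of steroid receptors, had 15.9 and 86.6 (2.38). These 3 genes were picked for the largest absolute ratios of the list. *TSC22D3*, at 2.12, lay below them but above the median of the list. The 1 lower gene was *ANGPTL4*, an inhibitor of lipoprotein lipase, with 1.85 and 0.508 FPKM (log2 ratio -0.92).

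In the SGK axis, 15 of 17 genes were retained, 6 were higher, 0 lower and 9 within 1.5-fold, with a median of 0.11. Over all retained genes, 7.67% were higher and 4.14% lower. *NDRG1*, which SGK1 phosphorylates, had 5.34 FPKM in EtOH and 25.2 in R5020 (log2 ratio 2.05). *FOXO1* and *FOXO4*, transcription factors that SGK and AKT kinases phosphorylate, had 1.12 and 1.24 FPKM in EtOH and 5.01 and 5.19 in R5020. *PDPK1*, the kinase that activates SGK1, had 12.7 and 26.5 FPKM (1.01), and *NEDD4L*, the ligase that SGK1 inhibits, had 6.11 and 12.6 (0.93). Among the genes within 1.5-fold were *FOXO3* (log2 ratio 0.20) and the epithelial sodium channel gene *SCNN1A* (0.041). *PDPK1*, *NEDD4L*, *FOXO3* and *SCNN1A* were named after their values were seen.

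For the lists that follow, the shares over all retained genes were again 7.67% higher and 4.14% lower. Among the partners of the TSC22 domain proteins, 9 of 11 genes were retained, 2 were higher and 0 lower, with a median of 0.13 that turned to -0.093 without the filter. *STK39*, a kinase of the WNK pathway, had 2.27 FPKM in EtOH and 7.88 in R5020 (log2 ratio 1.44), its relative *OXSR1* had 12.2 and 16.5 (0.41), and *JUN*, a subunit of AP-1, had 12.6 and 23.5 (0.85). In the mTORC1 axis, in which *DDIT4* acts and which shares *MTOR* and *MLST8* with the SGK list, 17 of 18 genes were retained, 1 was higher and 0 were lower, with a median of -0.030. This gene was *HIF1A*, a hypoxia-inducible transcription factor, with 25.1 and 67.8 FPKM (log2 ratio 1.40), while *DEPTOR*, an mTOR inhibitor, was at 0.50 and *SESN2*, another inhibitor of the pathway, at -0.45. Among the corepressors with which PLZF acts, 8 of 9 were retained and 0 were higher, with a median of -0.070. *BCOR* and *HDAC2* were at log2 ratios of 0.27 and 0.15.

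Genes of the steroid receptors themselves were also read. *PGR*, which encodes PR itself, had 23.7 FPKM in EtOH and 15.3 in R5020 (log2 ratio -0.60) and *ESR1*, which encodes an estrogen receptor, was also lower (-0.61). The glucocorticoid receptor gene *NR3C1* had 2.41 and 1.94 FPKM, and the mineralocorticoid receptor gene *NR3C2* had 0.594 and 1.15. *PGR* thus had the highest FPKM of these 4 genes in both libraries.

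**Figure D5:**
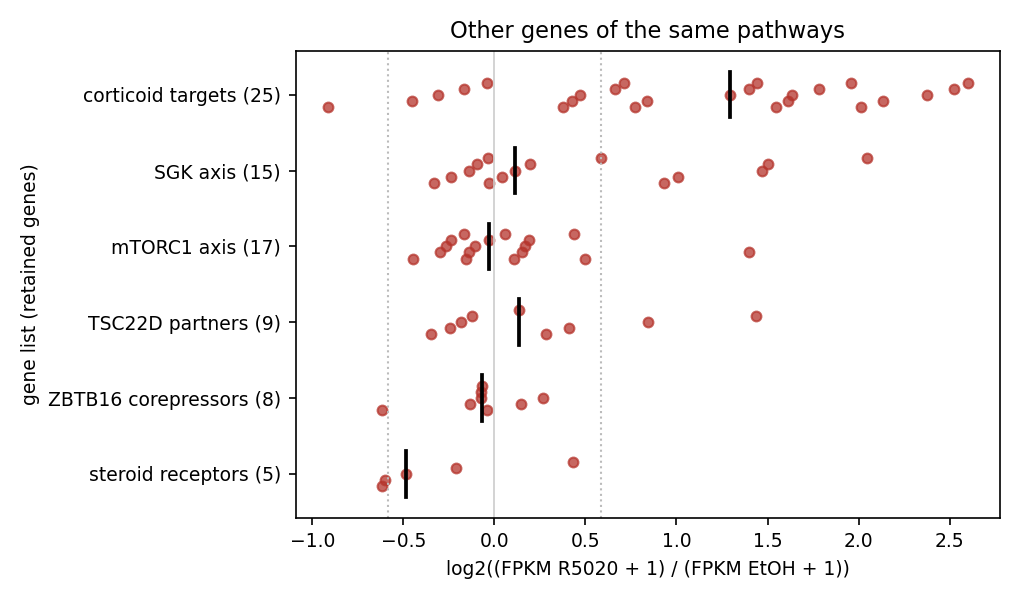
Log2 ratios (x axis, R5020 over EtOH after adding 1 to FPKM) of the retained genes of each list, which leaves out the members, with 1 point per gene, the median of each list as a bar and dotted lines at 1.5-fold. The corticoid targets have a median of 1.29. The lists of the SGK axis, the mTORC1 axis, the TSC22D partners and the corepressors have medians between -0.070 and 0.13. These medians cover retained genes, and without the filter that of the corticoid targets was 0.48 and that of the TSC22D partners -0.093. The lists were chosen with earlier results of these data known, so nothing is read from the contrast.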

How the data were processed

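RNA was measured in 1 EtOH and 1 R5020 library of T47D cells, and PR sites in 1 ChIP-seq library; an input DNA library is labelled but was not analysed here. The authors aligned RNA reads to hg19 with TopHat and deposited Cufflinks estimates per RefSeq transcript as FPKM, with 95% intervals, and as coverage, a signal giving mean read depth. Reads for the ChIP-seq were aligned with Bowtie (version 1.1.2 in the submitters' processing notes), and the authors deposited MACS sites with a score, with input DNA as control. Of 20 FPKM values above 0 for transcripts of the members, 10 lay outside their own deposited interval (*TSC22D1*, *TSC22D2*, *TSC22D4* and *DDIT4*), so no interval is given for these. Read numbers are coverage times length over 50 nt.

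FPKM was summed per gene symbol, 1 was added, and genes with at least 1 FPKM in either library were retained (Python 3.11.15, pandas 2.3.3, numpy 2.4.6). With 1 library per condition there is no test and no p-value, and a difference has no replicate check. The members and gene lists were chosen with earlier results of these data known. The text names all members, the 3 genes of each list with the largest ratio, and the 3 retained genes closest to each higher member in both libraries; some values of the corepressor and receptor lists are not reported here. Genes and exons came from GENCODE 44 on GRCh37, which is hg19, with positions counted from 1. Scripts were tested on simulated data. Alternatives covered the pseudocount, the filter, scaling, the transcript used, site distance and site score.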

Additional observations from a re-analysis of the deposited data

How the results depend on the processing

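No paired analysis was possible because there was 1 library per condition, and for the same reason no replicate could be left out. Another pseudocount, another scaling and the highest transcript of each library can change the log2 ratio of a member. The choice of transcript did so only for *TSC22D1* and *TSC22D3*. Under these 3 alternatives no retained member changed direction, but a pseudocount cannot change it and the scaling factor was only 1.008. *TSC22D1* was the 1 member to change its side of 1.5-fold, at 0.53 against 0.69. Its highest transcript was NM_183422 in EtOH and NM_006022 in R5020. With an FPKM of at least 1 required in both libraries, 3 members and 3 transcripts were higher in place of 5 and 6, because *SGK1*, *ZBTB16* and NM_013257 of *SGK3* were under 1 in EtOH. A pseudocount of 0.1 raised the log2 ratio of *SGK1* from 2.04 to 4.61. The 6 members with a PR site became 3 within 10 kb and 2 with a score of at least 100. The median of the corticoid targets was 1.42 with a pseudocount of 0.1 and 0.48 without a filter, and that of the TSC22D partners was -0.093 without a filter. Taking the midpoint of the deposited interval, an alternative chosen after seeing the data, gave log2 ratios of 0.73 for *TSC22D1* and 1.78 for *TSC22D2*, and *TSC22D4* fell under the filter.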

Other observations

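The retained genes whose FPKM in both libraries lay closest to that of a member, by Euclidean distance on the log2(FPKM + 1) scale over 2 libraries, were as follows. For *TSC22D2* they were *VDR*, the vitamin D receptor, with 6.35 FPKM in EtOH and 24.9 in R5020 (distance 0.0697), *NDRG1* and *SERINC5*. For *TSC22D3* they were *DIXDC1* (3.53 and 17.5 FPKM, distance 0.0880), *ACER2* (3.59 and 20.6) and *ZNF703* (4.05 and 19.1). For *TSC22D1* they were *UBE2W*, *SNX18* and *FTSJ2*, and for *ZBTB16* they were *ZSWIM7*, *KBTBD11* and *GJB6*. For *SGK1* they were *SNORA50*, *KDELC1* and *C12orf29*, all listed at 0 in EtOH. With 2 values per gene, many genes lie close to any member.

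A gene listed at 0 in one library was not rare: 59 genes were listed at 0 in EtOH and at or above 1 FPKM in R5020, and 72 showed the reverse, failed estimates included.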
